A study of Mus musculus with 16 samples.

Results

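The miRNAs described here are those that the red blood cell is best known for: miR-451a, both arms of miR-144, miR-16-5p and the 5p arm of miR-486. They are listed as mmu-miR-451a, mmu-miR-144-3p, mmu-miR-144-5p, mmu-miR-16-5p, mmu-miR-486a-5p and mmu-miR-486b-5p, and the prefix mmu is left out below. They were chosen by name and not by a measured value, although earlier results of these data were known. The name of miR-486-5p matched 2 entries, which gave 6 members of the 817 mature miRNAs among the 15159 non-coding RNAs (ncRNAs) measured in plasma extracellular vesicles (pEVs). The pEVs came from 8 PS19 mice and 8 wild-type (WT) mice of about 9.6 months. Each mouse gave 200 µL of plasma and 1 library. PS19 mice (genotype PS19+/-) carry human tau with the P301S mutation under the mouse prion promoter on a C57BL/6 and C3H background, the WT mice were littermates without the transgene, and both sexes were used in equal number in each genotype. Blood was drawn from the heart into EDTA, the plasma was spun once before storage, and pEVs were precipitated with a kit, a method that also brings down plasma albumin and lipoproteins.

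Red blood cells keep a small set of miRNAs after the nucleus is lost, and plasma receives them in vesicles that red cells shed and from cells that break during blood collection. miR-451a and miR-144 are made from 1 primary transcript that the transcription factor GATA1 drives in red cell precursors. miR-451a is unusual in that Argonaute 2, not Dicer, cuts its hairpin, while miR-144 is processed by Dicer into a guide arm and a partner arm. miR-486-5p is abundant in red cells and in muscle, and miR-16-5p, which acts on cell cycle genes, is made in most cell types but reaches plasma in large part from red cells.

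The mature sequences are shown because they tell the members apart and set what a single read can be assigned to, with the seed (bases 2 to 8, the part that pairs with a target) in capitals. A mature sequence from RefSeq on GRCm38.p6 was used for 4 of the 6 members.
miR-451a: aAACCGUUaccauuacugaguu
miR-144-3p: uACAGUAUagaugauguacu
miR-144-5p: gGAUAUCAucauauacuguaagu
miR-16-5p: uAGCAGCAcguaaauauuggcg
No seed was shared between these 4. They are 20 to 23 bases long, so a read covers about the whole of each and their levels can be set side by side without a correction for length.

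miR-451a and both arms of miR-144 lie on chromosome 11 of GRCm38, in 2 hairpins on the plus strand that are separated by 99 bases and overlap no protein-coding gene. The hairpins are shown with the mature miRNA in capitals, since their shapes are what differs between the 2 ways of processing.
Mir144, miR-144-3p in capitals, chr11:78073005-78073070 (+): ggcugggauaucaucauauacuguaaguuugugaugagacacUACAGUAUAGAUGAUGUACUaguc
Mir451a, miR-451a in capitals, chr11:78073170-78073241 (+): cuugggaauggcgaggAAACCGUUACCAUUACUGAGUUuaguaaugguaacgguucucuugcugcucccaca
miR-144-3p occupies bases 43 to 62 of its hairpin of 66 bases and miR-144-5p bases 6 to 28, 1 on each arm. miR-451a occupies bases 17 to 38 of a hairpin of 72 bases, so that it runs through the loop and leaves no separate 3p arm. The annotation also places Mir451b on the opposite strand at the same coordinates. miR-16-5p has the same sequence at 2 loci, Mir16-2 on chromosome 3 (69009902 to 69009996), in an intron of Smc4, and Mir16-1 on chromosome 14 (61631880 to 61631972), in an exon of the non-coding Dleu2, and the reads of the mature arm cannot be split between them. The miR-486 hairpins overlap on opposite strands of chromosome 8, Mir486 (23142555 to 23142682, plus strand) and Mir3107, the source of miR-486b (23142573 to 23142662, minus strand), within an intron of Ank1, which encodes the red cell membrane protein ankyrin-1.

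The values are read counts that the authors divided by a DESeq2 size factor for each library, called normalized counts here. Total assigned reads ranged from 36220722 to 117583663 per library, and tRNAs took between 90.8% and 99.9% of them, so that mature miRNAs had 51467 to 2681285 reads. PS19 replicates 1, 3 and 4 had the lowest shares of miRNA reads outside the members, and the limit that separates them was set after the data were seen. In these 3, mature miRNAs other than the members made up 0.0620% to 0.226% of the assigned reads, under 50% of the median of 0.499% over the 16 libraries, while the other 13 held 0.265% to 6.15%. No gap set the 3 apart, since PS19 replicate 3, at 0.226%, lay closer to WT replicate 8, at 0.265%, than to the other 2. This share did not differ between the genotypes beyond the spread between mice (log2 difference -1.12, two-sided exact permutation test, p = 0.193), and results are given below with and without these 3 libraries.

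The members covered the whole range from some of the most abundant miRNAs of the pEVs to the limit of detection. miR-486b-5p and miR-486a-5p ranked 4 and 6 of the 817 mature miRNAs by mean normalized count, miR-451a 29, miR-16-5p 105, miR-144-3p 219 and miR-144-5p 433. With miR-486a-5p standing for both copies, the members made up a median of 5.16% of the mature miRNA reads in PS19 (0.989% to 8.93%) and 6.01% in WT (3.17% to 10.3%). The reads of miR-486b-5p were left out of this sum but stayed in the total, so the share of all 6 entries was larger. miR-486a-5p alone gave 79.4% to 96.4% of this sum in the PS19 libraries and 89.95% to 96.003% in the WT libraries. Of the neighbours in this order, miR-486a-5p and miR-451a did not overlap within any library, and miR-486a-5p had at least 4 times the reads of miR-451a in each of the 16. miR-486b-5p had more reads than miR-486a-5p in 15 of the 16 libraries, all but PS19 replicate 1, by at most 1.05 times.

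miR-486-5p was the only member that limma called at a raw p of 0.05, the threshold of the study, and it was lower in PS19. Normalized counts of miR-486a-5p ran from 1549 to 42716 in PS19, with a median of 30934, and from 16443 to 90551 in WT, with a median of 36305. The 3 PS19 libraries at the bottom, with 4717, 4298 and 1549, were replicates 1, 3 and 4, and they lay below every WT library. The other 5 PS19 libraries, at 30820 to 42716, lay within the WT range, and 3 WT libraries were above every PS19 library. The log2 fold change of PS19 over WT, on the scale of log2(normalized count + 1), was -1.41 (95% interval -2.75 to -0.062, limma, raw p = 0.0410, Benjamini-Hochberg adjusted p = 0.829 over all ncRNAs, two-sided exact permutation test p = 0.0791). The call at the raw threshold was thus made by limma and not by the exact test. In these bulk libraries, fewer vesicles from a cell type and less of the miRNA per vesicle cannot be told apart.

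**Figure D1:**
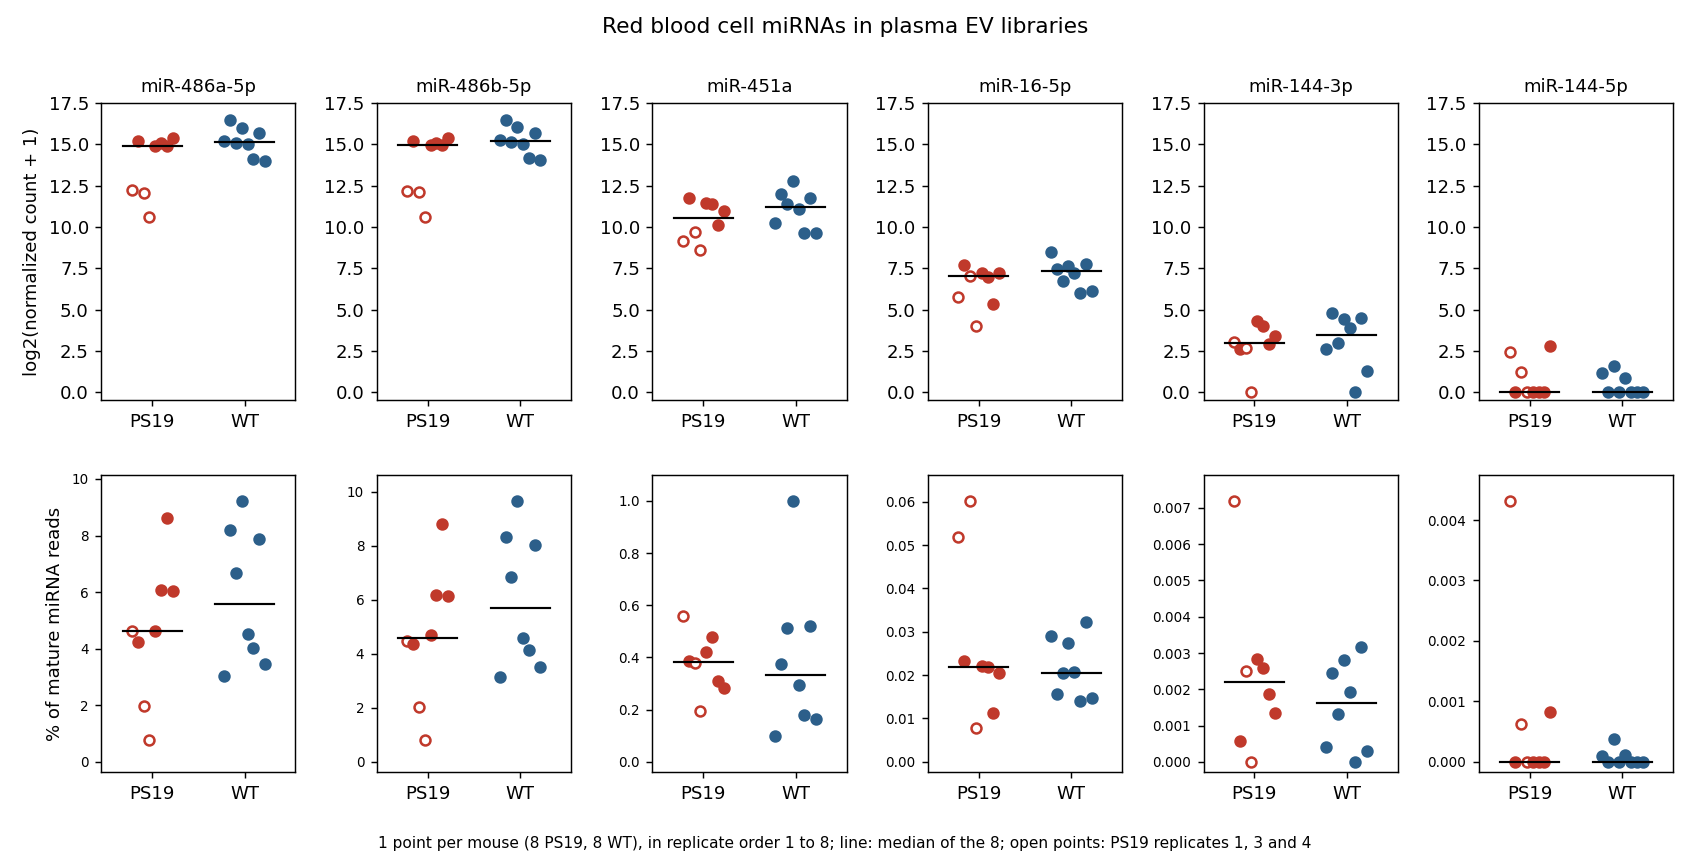
Level of each member in each library, as log2(normalized count + 1) in the upper row and as percent of the mature miRNA reads in the lower row (each panel has its own linear scale, from 0), with 1 point per mouse and a line at the median of 8. PS19 replicates 1, 3 and 4 (open points) are the 3 lowest for miR-486a-5p and miR-486b-5p in the upper row, between 1549 and 4717 normalized counts, while the groups overlap for every member in both rows.

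miR-486b-5p had nearly the same read totals and gave nearly the same values. Its reads were 0.971 to 1.05 times those of miR-486a-5p in the 16 libraries, and the 2 entries correlated across libraries with r = 0.9999. Its log2 fold change was -1.42 (95% interval -2.77 to -0.070, limma, raw p = 0.0400, exact permutation p = 0.0785, adjusted p = 0.829), and it is not counted as a second observation. The hairpins overlap on opposite strands, whether the same reads were assigned to both entries was not tested, and miR-486a-5p is used for both from here on.

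Among the 6 members 2 passed a raw p of 0.05, or 1 of 5 with the copy counted once, both lower in PS19. At the same threshold limma called 6.24% of the mature miRNAs and 4.85% of all ncRNAs, and 5.51% and 2.13% with the direction lower in PS19. None of the members had an adjusted p under 0.05 with limma, with DESeq2 or with edgeR, which gave one to 0.0%, 0.745% and 2.1% of all ncRNAs. DESeq2 and edgeR also gave no member a raw p under 0.05, against 2.82% and 20.3% of the mature miRNAs. The exact permutation test on the normalized scale called no member either. It was run on the members and the listed miRNAs only, so no share over all mature miRNAs can be set beside it. The median log2 fold change was -0.72 over the members, -0.25 over all mature miRNAs and -0.011 over all ncRNAs. Over the 4 members left without miR-144-5p and the copy miR-486b-5p it was -0.72 too. On mature miRNA totals the median over the 6 members was 0.16 (0.0011 over all mature miRNAs and 0.30 over all ncRNAs), and without PS19 replicates 1, 3 and 4 it was -0.017 (-0.13 and -0.059), so its sign and size depended on the scaling and on these libraries.

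The size of the difference in miR-486a-5p depended on PS19 replicates 1, 3 and 4. They are also the 3 lowest libraries for miR-486a-5p, so that leaving them out can only shrink the difference, and the values without them are given as a description. Without PS19 replicates 1, 3 and 4 the log2 fold change was -0.11 (95% interval -1.07 to 0.85, exact permutation p = 0.787), and with the share of other mature miRNAs as a covariate it was -0.63 (95% interval -1.58 to 0.31). Scaled to the total of mature miRNA reads in place of the size factors, it was -0.51 (95% interval -1.55 to 0.52). The fits without the 3 libraries and on mature miRNA totals did not call any member, against 3.25% of the mature miRNAs without the 3 libraries and 3.3% on the scale of mature miRNA totals. As a description, log2 miR-486a-5p followed the log2 share of other mature miRNAs over the 16 libraries with r = 0.80, a relation in which the library is the shared source of both values. Among the libraries whose names start with the letter G, which are the 8 PS19 libraries and WT replicates 2 and 4, the log2 fold change of miR-486a-5p was larger, at -2.44 (95% interval -4.82 to -0.071, limma, raw p = 0.0440, adjusted p = 0.917, exact permutation p = 0.0889). Whether the share of miRNAs in these libraries or the genotype set the lower level was not tested.

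miR-451a, the most red cell specific of the members, did not pass the test, and its difference lay within the spread between mice. Its normalized counts were 387 to 3394 in PS19 (median 1557) and 787 to 7135 in WT (median 2416), 2 PS19 libraries lay below every WT library and 3 WT libraries above every PS19 library. The log2 fold change was -0.67 (SE 0.56, 95% interval -1.82 to 0.47, exact permutation p = 0.261). Without PS19 replicates 1, 3 and 4 it was 0.072 (95% interval -0.99 to 1.14), and scaled to mature miRNA reads it was 0.22 (95% interval -0.75 to 1.19), so its sign depended on these choices. Among the libraries with the letter G it was -2.01 (95% interval -3.94 to -0.084, limma, raw p = 0.0415, adjusted p = 0.917, exact permutation p = 0.0667). limma called 71 of 691 mature miRNAs in this fit, 70 of them lower in PS19. Its 2 WT libraries had the highest miR-451a levels of the 16, and the labels do not say what the letter stands for.

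miR-144-3p, the partner of miR-451a in the primary transcript, was far less abundant and close to the limit of counting in several libraries. It had 0 to 23 reads per library in PS19 (median 7.5) and 0 to 66 in WT (median 10), with 0 reads in PS19 replicate 4 and in WT replicate 6. In normalized counts it ran from 0 to 19.0 in PS19 (median 7.02) and from 0 to 27.1 in WT (median 10.4), and no PS19 library lay outside the WT range. The log2 fold change was -0.18 (SE 0.69, 95% interval -1.60 to 1.23, exact permutation p = 0.807), and it was 0.39 without PS19 replicates 1, 3 and 4.

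miR-144-5p, the other arm of the same hairpin, was at or under 3 reads, the smallest count taken as detectable, in 15 of the 16 libraries. PS19 replicates 1, 3 and 8 had 3, 1 and 8 reads, WT replicates 1, 3 and 5 had 1, 2 and 2, and the other 10 libraries had 0. A difference between the genotypes was not detectable at this depth, and no fold change of its normalized count is given. Over the 16 libraries the 3p arm had 224 reads and the 5p arm 17.

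miR-16-5p had 15.3 to 203 normalized counts in PS19 (median 127.9) and 62.6 to 360 in WT (median 161). Below every WT library were 3 PS19 libraries, replicates 1, 4 and 7, and above every PS19 library were WT replicates 1 and 7. The log2 fold change was -0.77 (SE 0.53, 95% interval -1.87 to 0.32, exact permutation p = 0.170), and it was -0.30 without PS19 replicates 1, 3 and 4 and 0.11 on the scale of mature miRNA reads.

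**Figure D2:**
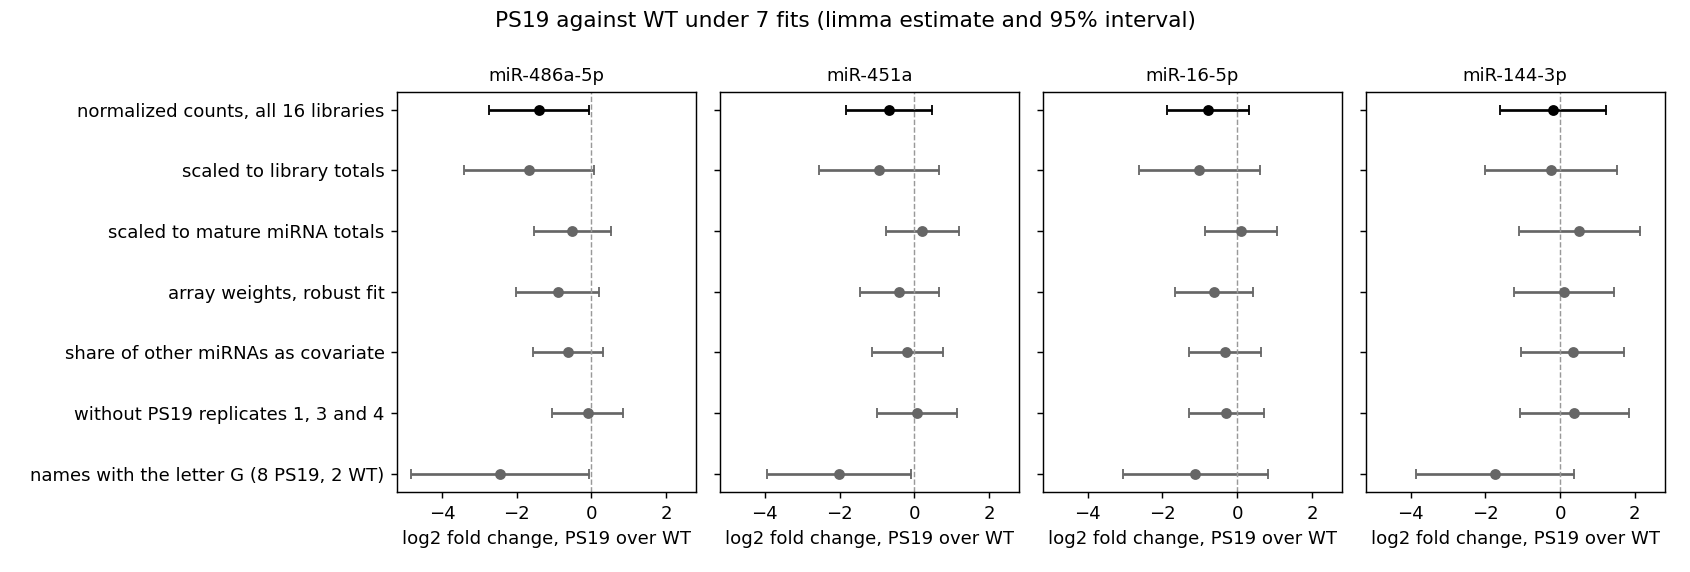
limma log2 fold change of PS19 over WT with its 95% interval for miR-486a-5p, miR-451a, miR-16-5p and miR-144-3p under 7 fits, with black for the normalized counts of all 16 libraries. The interval of miR-486a-5p excludes 0 with the normalized counts (-2.75 to -0.062) and among the libraries with the letter G, and it includes 0 in the other 5 fits shown.

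Expressed as a share of the mature miRNA reads, which does not depend on the size factors or on the tRNA reads, no member passed the test of PS19 against WT. miR-486a-5p made up 0.785% to 8.61% in PS19 (median 4.62%) and 3.05% to 9.23% in WT (median 5.58%), a log2 difference of -0.51 (two-sided exact permutation test, p = 0.289) that was -0.19 without PS19 replicate 4. Only PS19 replicates 3 and 4, at 1.97% and 0.785%, lay below every WT library, and PS19 replicate 1 was at 4.62%. miR-451a made up 0.196% to 0.558% in PS19 (median 0.383%) and 0.0974% to 1.0% in WT (median 0.334%), a log2 difference of 0.22 (exact permutation test, p = 0.611). miR-16-5p had medians of 0.0219% and 0.0205% and a log2 difference of 0.13 (exact permutation test, p = 0.736). For miR-144-3p the log2 difference was 1.04 (exact permutation test, p = 0.217, and 0.49 without WT replicate 6, which had 0 reads), with the 3 PS19 libraries of fewest miRNA reads resting on 0 to 5 reads. Adjusted over all 817 mature miRNAs, the p-values of the 6 members were 0.497 to 0.873, against 9.79% of these miRNAs with a raw p under 0.05 in this test and 0 with an adjusted one. Without PS19 replicates 1, 3 and 4 the log2 difference of miR-486a-5p was 0.076 (exact permutation test, p = 0.813), and among the libraries with the letter G it was -1.19 (exact permutation test, p = 0.178).

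Ratios of 2 miRNAs within a library are free of any scaling, and 6 were compared between the genotypes. The balance between miR-451a and miR-486a-5p showed the smallest p of the 6. miR-486a-5p had 4.0 to 27.7 times the reads of miR-451a in PS19 (median 10.9) and 9.23 to 31.3 times in WT (median 18.1). The mean log2 ratio of miR-451a to miR-486a-5p was -3.40 in PS19 (SD 0.94, n = 8) and -4.13 in WT (SD 0.55, n = 8), a difference of 0.73 that did not pass the threshold (two-sided exact permutation test, p = 0.0789, adjusted p = 0.474 over 6 ratios). The 3 highest ratios of the 16 libraries were those of PS19 replicates 1, 3 and 4, and without them the difference was 0.18 (exact permutation test, p = 0.594).

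The ratio of miR-451a to miR-23a-3p is used in plasma work as an index of haemolysis, because miR-23a-3p changes little when red cells break. Its log2 value was 0.95 in PS19 (SD 1.22, n = 8) and 1.05 in WT (SD 0.996, n = 8), a difference of -0.10 (exact permutation test, p = 0.850). PS19 values ran from -0.43 to 2.92 and WT values from -0.62 to 2.10, so that libraries of one genotype differed from each other by far more than the genotypes did. Without PS19 replicates 1, 3 and 4 the difference was 0.54 (exact permutation test, p = 0.358), and among the libraries with the letter G it was -1.02 (exact permutation test, p = 0.356). The cut-offs used for this index were set for PCR and are not applied to these reads.

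Of the other ratios, miR-451a to miR-16-5p differed by 0.090 (exact permutation test, p = 0.847), miR-486a-5p to miR-16-5p by -0.64 (p = 0.255, and -0.31 without PS19 replicate 3), miR-451a to miR-144-3p by -0.83 (p = 0.178, and -0.38 without WT replicate 6) and miR-144-3p to miR-144-5p by -0.55 (p = 0.641), all with the exact permutation test on log2 ratios and adjusted p-values of 0.509 to 0.850. The miR-144 arms have too few reads for their ratio to carry more than a range, which was 0 to 7.06 on the log2 scale over the 16 libraries.

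**Figure D3:**
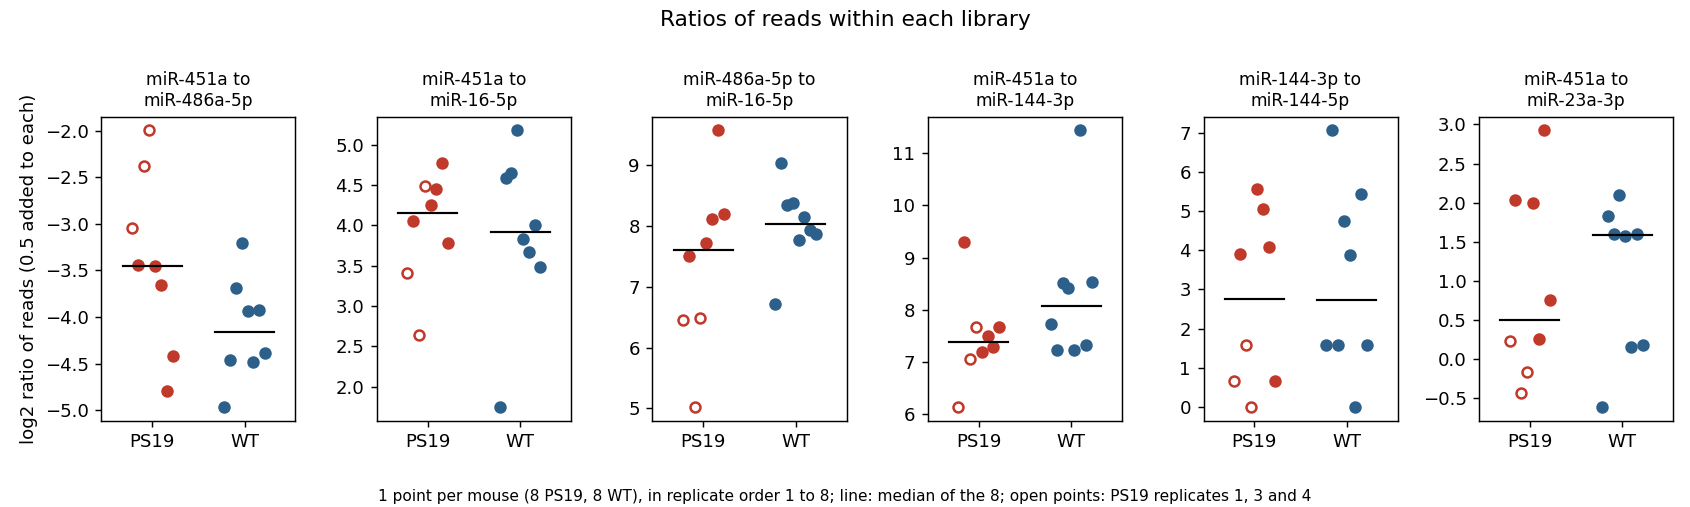
Log2 ratios of reads within each library for the 6 ratios compared, with 0.5 read added to both sides, 1 point per mouse and a line at the median of each genotype. The ratio of miR-451a to miR-486a-5p is highest in PS19 replicates 1, 3 and 4 (open points), and the PS19 and WT points overlap in all 6 panels.

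Across libraries the level of miR-451a was compared with those of the other members in pairs. Most abundant miRNAs followed miR-451a on the normalized scale, with a median rho of 0.55 over 110 of them. On the log2 normalized scale its correlation with miR-486a-5p was r = 0.86 (permutation p = 1e-05, the smallest that 100000 resamples can give, adjusted p = 5e-05 over 5 pairs) and rho = 0.86 (p = 0.00011). Without the 2 libraries farthest from the median of miR-451a, r was 0.76. The relation held within PS19 (r = 0.91) and within WT (r = 0.89), both with exact permutation p under the threshold (0.0027 and 0.0039), and over the 13 libraries left without PS19 replicates 1, 3 and 4 (r = 0.82). As shares of the mature miRNA reads the correlation was r = 0.53 (permutation p = 0.0364, adjusted p = 0.091). On this scale r was 0.94 within WT (exact permutation p = 0.00055) but 0.54 within PS19 (exact permutation p = 0.175), where rho was 0.21 (exact permutation p = 0.619).

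With miR-144-3p, its neighbour 99 bases away, miR-451a correlated with r = 0.78 (permutation p = 0.00021, adjusted p = 0.00052) and rho = 0.76, and r was 0.78 without the 2 farthest libraries. Within PS19 r was 0.71 and within WT 0.89 (exact permutation tests, p = 0.0261 and 0.00246), although rho within PS19 was only 0.43 (exact permutation test, p = 0.299). As shares of the mature miRNA reads r was 0.70 and rho 0.83 (permutation p = 0.00279 and 9e-05). Set beside the 110 abundant miRNAs described below, the rho of miR-144-3p with miR-451a took place 1 on the scale of shares and place 15 on the normalized scale.

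With miR-16-5p the correlation was r = 0.72 (permutation p = 0.0012, adjusted p = 0.002) and rho = 0.75 on the normalized scale, r = 0.52 without the 2 farthest libraries, 0.83 within PS19 and 0.49 within WT (exact permutation tests, p = 0.0084 and 0.212). As shares it was r = 0.39 (permutation p = 0.131). WT replicate 1 departed most from the rest, with the highest miR-16-5p of all libraries, 360 normalized counts, beside 1209 of miR-451a. With miR-144-5p, r was -0.22 (permutation p = 0.405), and between the arms of miR-144 it was 0.069 (permutation p = 0.809).

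**Figure D4:**
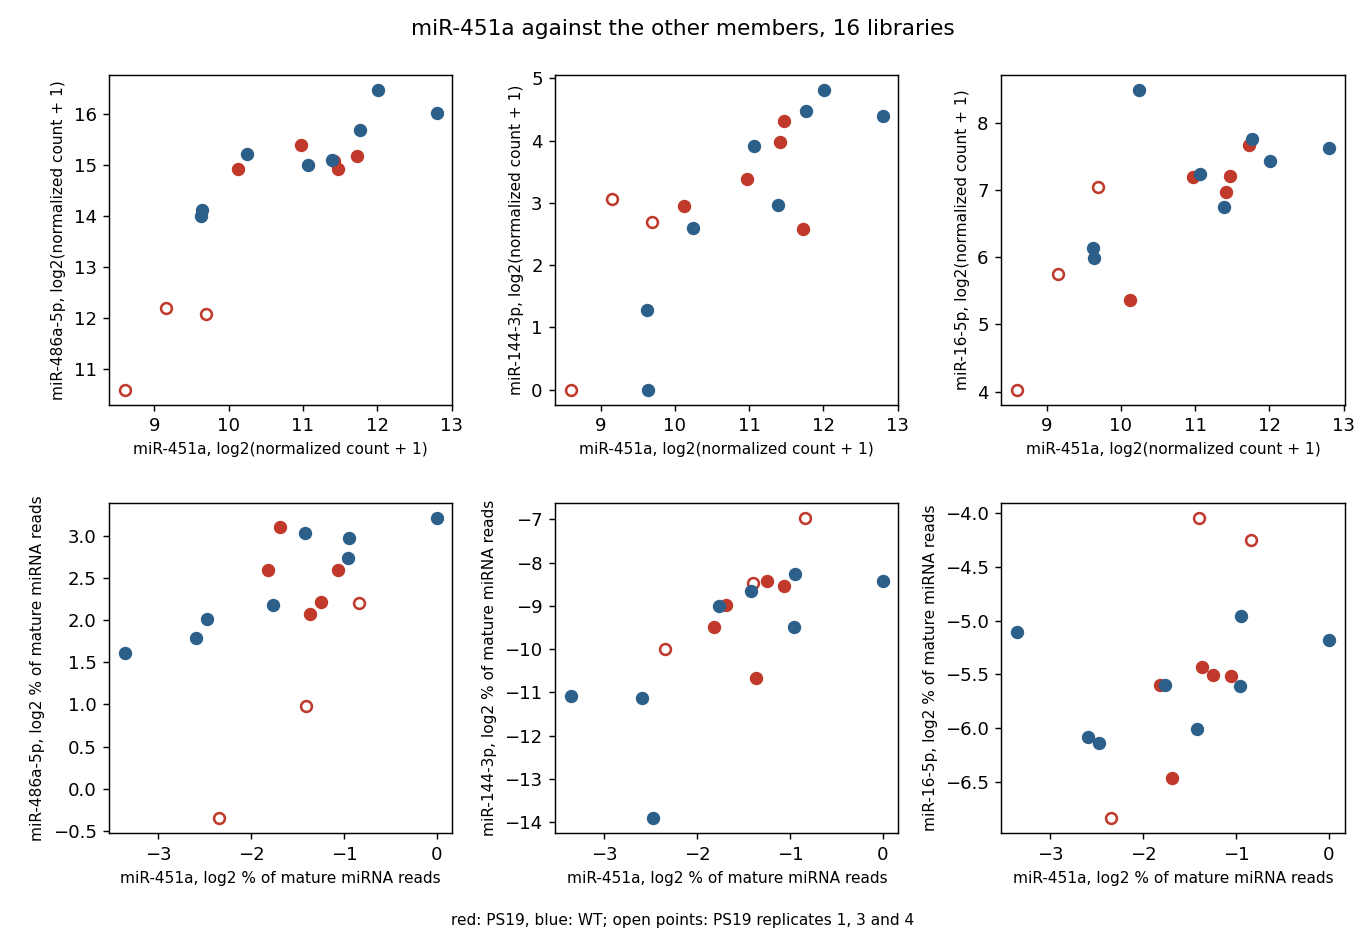
Levels of miR-486a-5p, miR-144-3p and miR-16-5p against miR-451a in the 16 libraries (red PS19, blue WT, open points PS19 replicates 1, 3 and 4), on the log2 normalized scale above and as log2 percent of mature miRNA reads below. r was 0.86, 0.78 and 0.72 in the upper row and 0.53, 0.70 and 0.39 in the lower row, and the upper row shares the size factor of each library between the axes.

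Among 110 other mature miRNAs with a mean of at least 100 normalized counts, those that followed miR-451a most closely over the 16 libraries were miR-378c (rho = 0.88), miR-148b-3p (0.83), miR-486a-3p (0.82), miR-30e-5p (0.80) and miR-486b-3p (0.79). On the scale of shares, where the median rho was 0.17, the 5 closest were miR-148b-3p (0.77), miR-378c (0.69), miR-378a-3p (0.68), miR-191-5p (0.65) and miR-140-3p (0.64). miR-148b-3p and miR-378c were among the 5 closest on both scales, and the 3p arms of miR-486 on the normalized scale only.

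The other arms and the precursor entries of the same genes gave 11 further entries, of which 1 was called, beside 4.85% of all ncRNAs and 6.24% of mature miRNAs, and 8 had a negative log2 fold change (median -0.45). Without PS19 replicates 1, 3 and 4 the median was 0.12 and 3 were negative. The precursor entry mir-486a was lower in PS19 at 0 to 52.3 normalized counts (median 29.8) than in WT at 17.1 to 63.7 (median 47.5), with a log2 fold change of -1.60 (limma, raw p = 0.0404, adjusted p = 0.829, exact permutation p = 0.0793). Of its PS19 libraries, 2 were at 0. miR-486a-3p, the partner arm, had 72.9 to 2062 normalized counts in PS19 (median 1448) and 627 to 2741 in WT (median 2151), with a log2 fold change of -1.18 that did not pass the threshold (exact permutation p = 0.130). The 5p arm had 15.9 to 25.5 times the reads of the 3p arm in PS19 and 15.6 to 35.7 times in WT, so that the 5p arm was the dominant one in every library. For miR-16 the 3p arms differ between the loci, and that of Mir16-1 was read in 11 of the 16 libraries while that of Mir16-2 was read in 1. None of these entries was called without PS19 replicates 1, 3 and 4.

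Of 11 other miRNAs that are abundant in red cells, 1 was called, beside 6.24% of all mature miRNAs, and 9 had a negative log2 fold change (median -0.54). The called one was miR-363-3p (log2 fold change -1.42, limma, raw p = 0.0373, adjusted p = 0.829, exact permutation p = 0.0536), which was at 0 in 6 PS19 libraries and 1 WT library and at most 8.69 normalized counts elsewhere. The 2 most abundant of this list were miR-25-3p, with medians of 3872 in PS19 and 6538 in WT (log2 fold change -0.95, exact permutation p = 0.141), and miR-92a-3p, with medians of 2658 and 3862 (log2 fold change -0.84, p = 0.119), members of 1 seed family whose best known members come from the miR-17-92 and related clusters. Scaled to the total of mature miRNA reads, the median of this list was 0.33 and 2 of 11 were negative, and without PS19 replicates 1, 3 and 4 it was -0.027. Of the 9 miRNAs with the seed of miR-16-5p, 4 were in the table, and none was called (median log2 fold change -0.28).

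Markers of other blood cells and tissues were present beside the red cell miRNAs. The counts called in these short lists stand beside 6.24% of all mature miRNAs called by limma, and 5.51% with the direction lower in PS19. None of 4 platelet and none of 5 white cell miRNAs was called by limma, with medians of -0.66 and -0.19, although the exact permutation test gave p = 0.0169 for the platelet and endothelial miR-126a-3p (log2 fold change -0.75). miR-126a-3p was at -0.42 without PS19 replicates 1, 3 and 4 (exact permutation p = 0.106) and among the libraries with the letter G at -0.85 (exact permutation p = 0.111), so the call was lost. The signs of the list medians depended on the scaling, since on mature miRNA totals they were 0.23 for platelet, 0.70 for white cell, 0.086 for liver and 0.32 for neuron miRNAs. The summed levels of these lists overlapped between the genotypes, and the summed platelet list ran from 1005 to 5311 normalized counts in PS19 and from 2833 to 7413 in WT, against 610 to 7003 and 1256 to 5371 for the white cell list. Of 3 liver miRNAs 1 was called, miR-122-5p (log2 fold change -1.57, limma, raw p = 0.0387, adjusted p = 0.829, exact permutation p = 0.0805), and the median of the list was -0.81. Muscle also makes miR-486-5p, and of 3 muscle miRNAs miR-206-3p was higher in PS19 (log2 fold change 1.79, limma, raw p = 0.0361, adjusted p = 0.829, exact permutation p = 0.0903), while miR-133a-3p was at 1.16 (exact permutation p = 0.258) and miR-1a-3p at -0.024 (exact permutation p = 0.979), neither called (median of the list 1.16), with summed muscle levels of 1733 to 94150 in PS19 and 4513 to 64139 in WT. Without PS19 replicates 1, 3 and 4 the log2 fold change of miR-206-3p was 3.03 (exact permutation p = 0.00466). DESeq2 and edgeR on the recovered reads called miR-206-3p over all ncRNAs, with log2 fold changes of 2.97 in both (adjusted p = 0.0112 and 0.0012), while on library totals it was 1.52 (limma, adjusted p = 0.864) and not called at a raw p of 0.05. Among the libraries with the letter G it was 1.03 (exact permutation p = 0.578), with miR-133a-3p at -0.64 and miR-1a-3p at -0.79. miR-133a-3p was at 1.82 with DESeq2 (raw p = 0.0138, adjusted p = 0.198) and at -0.30 with edgeR (raw p = 0.662), so its sign depended on the tool. None of 3 neuron miRNAs was called (median -0.57). The part of these cell types in the levels of the red cell miRNAs was not tested.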

How the data were processed

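Small RNA libraries (NEBNext, single-end) were made from pEV RNA of 8 PS19 and 8 WT mice. The authors aligned reads with STAR 2.5.3a, assigned them with COMPSRA and ran DESeq2 1.42.1, and the submitters' processing notes name the build mm10. The deposited signal of each library is the count divided by its DESeq2 size factor. The authors' comparison columns hold a mean signal, log2 fold changes with their errors, a Wald score and p-values with adjusted p-values, and none was used. Every value was a whole multiple of 1 read within 1e-06 (100% of values), so the whole reads were recovered. A read was worth 0.389 to 3.83 normalized counts, and 3 reads were taken as the smallest detectable count. Exact intervals of shares cover counting error only, while limma intervals rest on the spread between mice.

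PS19 was compared with WT by limma 3.58.1 (trend, two-sided) on log2(normalized count + 1) over all 15159 ncRNAs, with no filter on low values, since the values are normalized. Shares of mature miRNA reads, whose total counts both miR-486 entries, and read ratios were tested with exact permutation tests over 12870 splits (0.5 read added to the counts), and correlations with 100000 resamples or exactly within a genotype. Alternatives were DESeq2 1.42.0 and edgeR 4.0.16 on the recovered reads, library or mature miRNA totals, a mean of at least 10, a pseudocount of 0.1, array weights, a replicate block, each library left out and the libraries with the letter of the PS19 names. The members, the lists of other miRNAs, the tests and the alternatives were chosen with earlier results of these data known. All members were named, entries of the lists by list, and the 5 miRNAs most like miR-451a by Spearman rho. Mice differed between equal replicate numbers, and libraries of a genotype differed by more than sampling noise. Computations used Python 3.11.15, scipy 1.17.1 and R 4.3.3, and the tests were checked on simulated data. Positions are from GENCODE and RefSeq on GRCm38. The sex of each mouse, and sequences of miR-486, were not used here.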

Additional observations from a re-analysis of the deposited data

Results flagged for a closer look

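Of 38 groups of 8 values tested for a highest or lowest library far from the rest, 5 stood out. No chance rate is set beside this count, since some groups hold several libraries at 0 reads and the groups are not independent of each other. miR-451a made up 1.0% of the mature miRNA reads in WT replicate 4 (exact 95% interval 0.971% to 1.03%, 4621 reads), against 0.0974% to 0.520% in the other 7 WT libraries. miR-144-3p made up 0.00720% in PS19 replicate 1 (exact interval 0.00234% to 0.0168%), on 5 reads of 69476, against 0 to 0.00283% in the other PS19 libraries. miR-144-5p made up 0.00432% in the same library, on 3 reads (exact interval 0.00089% to 0.0126%), against 0 to 0.000823%. In WT replicate 3 miR-144-5p made up 0.000374%, on 2 reads (exact interval 4.53e-05% to 0.00135%), which is under the smallest count taken as detectable. The log2 ratio of miR-451a to miR-144-3p was 11.43 in WT replicate 6, where miR-144-3p had 0 reads, against 7.23 to 8.53 in the other WT libraries, and it is set by the 0.5 read added.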

How the results depend on the processing

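The lower level of miR-486a-5p in PS19 kept its direction under all alternatives on the log2 fold change, and its call was lost under 16 of them, the exact permutation test included, and kept under 12. The alternatives without the 3 libraries of fewest other miRNAs, with that share as a covariate and with the exact test were chosen after seeing the data. The log2 fold change of miR-486a-5p was -0.90 with DESeq2 (miR-486b-5p -0.91), -0.998 with edgeR (-1.002), -1.68 on library totals (-1.69), -0.51 on mature miRNA totals (-0.53), -0.90 with array weights (-0.91), -0.11 without PS19 replicates 1, 3 and 4 (-0.11), -0.63 with the covariate (-0.64) and -1.41 with the exact test (-1.42), all without a raw p under 0.05. With 1 library left out it ran from -1.63 to -0.95 (-1.65 to -0.96) and passed in 8 of 16 fits (9 of 16). It was lost without PS19 replicates 1, 3 or 4 or WT replicates 1, 2, 4 or 7, and for miR-486a-5p alone without WT replicate 3. On mature miRNA totals the sign turned for miR-451a (0.22), miR-144-3p (0.52) and miR-16-5p (0.11), and without PS19 replicates 1, 3 and 4 for miR-451a (0.072) and miR-144-3p (0.39). miR-144-3p also turned with array weights (0.11), with the covariate (0.34) and in the range without 1 library (-0.62 to 0.23). Among libraries with the letter G miR-451a passed (-2.01), and miR-486a-5p had its largest log2 fold change of any setting, -2.44 (miR-486b-5p -2.47), a raw call with limma and not with the exact permutation test (p = 0.0889). Over all mature miRNAs, 71 of 691 passed in that limma fit, 70 of them lower in PS19. As shares of mature miRNA reads, without PS19 replicates 1, 3 and 4 the log2 difference turned for miR-16-5p (-0.12), miR-486a-5p (0.076) and miR-486b-5p (0.073), and among the letter G libraries for miR-451a (-0.76) and miR-144-3p (-0.41). Without 1 library it ran from -0.019 to 0.46 for miR-451a, from -0.072 to 0.33 for miR-16-5p, from 0.49 to 1.29 for miR-144-3p and from -0.68 to -0.19 for miR-486a-5p (-0.70 to -0.20 for miR-486b-5p). Of the log2 ratios, without PS19 replicates 1, 3 and 4 that of miR-451a to miR-23a-3p was 0.54, of miR-486a-5p to miR-16-5p 0.19 and of miR-144-3p to miR-144-5p 0.62, and among the letter G libraries that of miR-451a to miR-16-5p was -0.90. Without 1 library the ratios ran from -0.39 to 0.093 (miR-451a to miR-23a-3p), -0.22 to 0.28 (to miR-16-5p), -1.09 to -0.38 (to miR-144-3p, past the threshold without PS19 replicate 2), -0.96 to -0.31 (miR-486a-5p to miR-16-5p), 0.53 to 0.93 (miR-451a to miR-486a-5p, past it without PS19 replicate 7, PS19 replicate 8 or WT replicate 4) and -1.01 to 0.00095 (between the miR-144 arms). Pearson's r of miR-451a with miR-16-5p was 0.49 within WT and 0.39 on shares, and with miR-144-5p 0.021 on shares. limma called 735 ncRNAs at a raw p under 0.05 (412 higher in PS19), and the number was 2295 with edgeR, 440 on library totals (296 lower), 1142 on mature miRNA totals (1035 higher) and 230 with a mean of at least 10. In the lists, the number called became 0 with DESeq2 and without PS19 replicates 1, 3 and 4 for the other arms and precursors, the other red cell miRNAs and liver, 0 on mature miRNA totals for the other arms and liver, 1 for platelet with DESeq2 (lower in PS19) and on mature miRNA totals (higher in PS19), 2 for muscle with both (higher), and 1 for neuron without PS19 replicates 1, 3 and 4. The cause of these changes was not tested. A replicate block, although equal numbers mark different mice (same-numbered libraries correlated with r = -0.18 to 0.47), left the log2 fold change of miR-486a-5p at -1.41 with a raw call, and gave a call to the share of miR-144-5p (log2 difference 1.59), which rests on 17 reads and is not read as a difference. miR-144-5p, at 0 reads in 10 libraries, is limited by depth under each setting.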
